A study of Homo sapiens with 8 samples.

Results

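The MCM helicase and replication licensing genes are 10 genes taken by symbol from the 58735 genes measured. They are MCM2, MCM3, MCM4, MCM5, MCM6 and MCM7, which encode the 6 subunits of the replicative helicase, and MCM10, CDC6, CDT1 and CDC45. All 10 were measured in every library and passed the filter on low reads, with 619 to 16840 reads per gene and library. U2OS cells, an established human osteosarcoma line, stably carried a control shRNA (control cells) or a shRNA against WSB2, a substrate receptor of a ubiquitin ligase (KD cells). Both kinds of cells had been transduced with lentivirus and selected with puromycin, and the shRNA against WSB2 that was used for sequencing is not given in the sources used here. Each was left without TNF-α or stimulated with this cytokine for 5 h, and total RNA of 2 samples per group was sequenced, which makes 8 libraries in 4 groups. No source states that the 2 samples of a group came from separate cultures, so P-values measure the spread between these samples, which may be technical.

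Before a cell replicates its DNA, each origin is licensed. The origin recognition complex and CDC6 bind the origin, and CDT1 brings in the ring of MCM2 to MCM7, which is loaded around the double helix in an inactive form. At the start of S phase CDC45 and the GINS complex join the ring to make the active helicase, with MCM10 acting in that activation. Geminin (GMNN) binds CDT1 and keeps origins from being licensed again in the same cycle. Most of these genes are transcribed at the passage from G1 to S, when E2F factors are freed from the retinoblastoma protein. Bulk RNA cannot tell fewer cells in a phase of the cycle from less RNA per cell.

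The promoters of the members share E2F letters that the choice of genes did not use. RefSeq windows of 300 bases on GRCh38.p14, 250 before the start site and 50 from it onwards, were found for 8 of the 10 members, all but MCM4 and MCM5. TTTCCCGC, TTTCGCGC, TTTGCCGC or TTTGGCGC occurred on either strand in a window of 6 of these 8 members, against 3.31% of the 35116 promoter windows of all genes. With TTTGGCGG, a spelling added after the windows had been read, all 8 members had a match, against 3.92% of all windows. The letters CCAAT, on either strand, were in a window of 6 of the 8 members and in 34.6% of all windows. The CHR letters TTTGAA and TTTCGAA were in none of the 8 members and in 15.7% of all windows. MCM7 and CDC45 had several windows, so that the 8 members had 12, while the shares of all genes are per window. Per window, 6 of the 12 had the E2F letters first searched, 8 had these or the added spelling, and 9 had CCAAT. The added spelling came from reading these windows, so its share in the members is not independent of them. These are matches of letters, and binding was not measured.

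For each of the 8 members the match nearest to the start site is shown, because members whose levels moved in opposite directions below carry nearly the same letters. Only the letters of this nearest match are in capitals, 5′ to 3′ on the strand of the gene.
MCM2: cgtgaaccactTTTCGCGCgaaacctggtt
MCM3: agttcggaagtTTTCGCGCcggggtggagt
MCM6: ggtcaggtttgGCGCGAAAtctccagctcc
MCM7: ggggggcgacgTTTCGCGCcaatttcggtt
MCM10: ccggttggaatTTTGGCGGgttcagctgtg
CDC6: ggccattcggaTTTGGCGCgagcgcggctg
CDT1: cccgcgggaaaTTTGGCGGgaaccgcgccc
CDC45: aggagccgtgaTTTGGCGGgagtcttgacc
The MCM6 match reads on the opposite strand, and the nearest matches of MCM10, CDT1 and CDC45 are of the added spelling. The MCM2 stretch lies at chr3:127598402-127598431 on the plus strand and that of MCM6 at chr2:135876511-135876540 on the minus strand. The MCM7 stretch lies at chr7:100101388-100101417 on the minus strand and that of MCM10 at chr10:13161552-13161581 on the plus strand. Counting the start site as 0, the matches began at 2 in MCM2, -4 in MCM3, -86 in MCM6, -9 in MCM7, 5 in MCM10, 7 in CDC6, -27 in CDT1 and -25 in CDC45. Further matches of the spellings first searched lie partly or wholly in small letters of these stretches. They began at -35 in CDT1 and 6 in MCM2, both on the opposite strand, and at -90 in MCM6 on the strand of the gene.

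The libraries were comparable in depth, with 15601098 to 18677023 reads. The unstimulated KD libraries stood apart from the other 6. In them 4.10% to 4.42% of reads were mitochondrial, where the other 6 had 1.11% to 2.03%. Their read-weighted GC content was 49.4% to 49.9% (others 52.5% to 53.2%), and they detected 26225 to 26397 genes (others 22072 to 22957). The library size in the deposited values was 1.21 times the total reads in both unstimulated KD libraries and 0.925 to 1.03 times in the others. WSB2 was lower in KD cells by a log2 fold change of -1.61 without and -1.37 with TNF-α, and called lower in both. Of the markers of the osteoblast lineage, SPARC (216 to 293 FPKM) and COL1A1 (172 to 269 FPKM) were abundant, ALPL (1.22 to 5.41 FPKM), RUNX2 (1.29 to 2.94 FPKM) and SPP1 (0.671 to 2.50 FPKM) were low. BGLAP reached at most 0.448 FPKM, COL1A2 0.0934 and SP7 0.0169, and IBSP was listed at 0 in every library, so that 4 of these 9 markers were at or near 0. In unstimulated KD cells RUNX2 was called higher (0.46) and ALPL (-0.69), COL1A1 (-0.47) and SPARC (-0.38) lower; their part in the members' differences was not tested. The 3 leukocyte markers stayed at or below 0.245 FPKM and the 3 endothelial markers at or below 0.378 FPKM. Of the epithelial markers, KRT8 and KRT18 were abundant and lower in unstimulated KD cells by log2 fold changes of -1.25 and -1.13, and EPCAM and CDH1 were at or below 0.482 FPKM.

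Values below are FPKM, fragments scaled to library size and to all annotated exon bases of a gene. These can exceed the length of the expressed transcript, as with 7338 bases for MCM5 and 4902 for MCM2. Levels and shares of different genes are therefore compared only roughly. In unstimulated control cells MCM7 stood highest at 199 ± 16.0 FPKM (SD, n = 2), followed by MCM3 at 99.0 ± 3.29 and CDT1 at 58.0 ± 9.77. MCM4, MCM5, MCM2 and CDC45 lay close together, with means from 40.3 to 45.9 FPKM, and each overlapped its neighbour in this order. CDC6 at 19.6 ± 0.282 and MCM6 at 19.3 ± 0.0329 FPKM came next, nearly level, and MCM10 was lowest at 8.01 ± 0.624. MCM7 was the highest and MCM10 the lowest member in all 8 libraries. The highest member exceeded the lowest by 22.2 to 27.8 times in the 6 libraries other than the unstimulated KD libraries, and by 7.39 and 7.96 times in those.

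Without TNF-α, 9 of the 10 genes differed between KD and control cells, 2 of them higher and 7 lower in KD cells, where 29.8% of the 16528 genes tested were called higher and 30.2% lower. MCM2, MCM3, MCM4, MCM5, MCM7, CDT1 and CDC45 were lower in KD cells, MCM6 and MCM10 were higher, and CDC6 was at nearly the same level. Of these directions that of MCM4 turns when libraries are scaled to their total reads. As deposited, CDT1 fell most among the members, to 0.494 times the control level, and MCM10 rose most, to 1.69 times. With a correction for GC content and length, described below, MCM5 fell most (-0.64 on the log2 scale) and CDT1 was at -0.37.

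**Figure D1:**
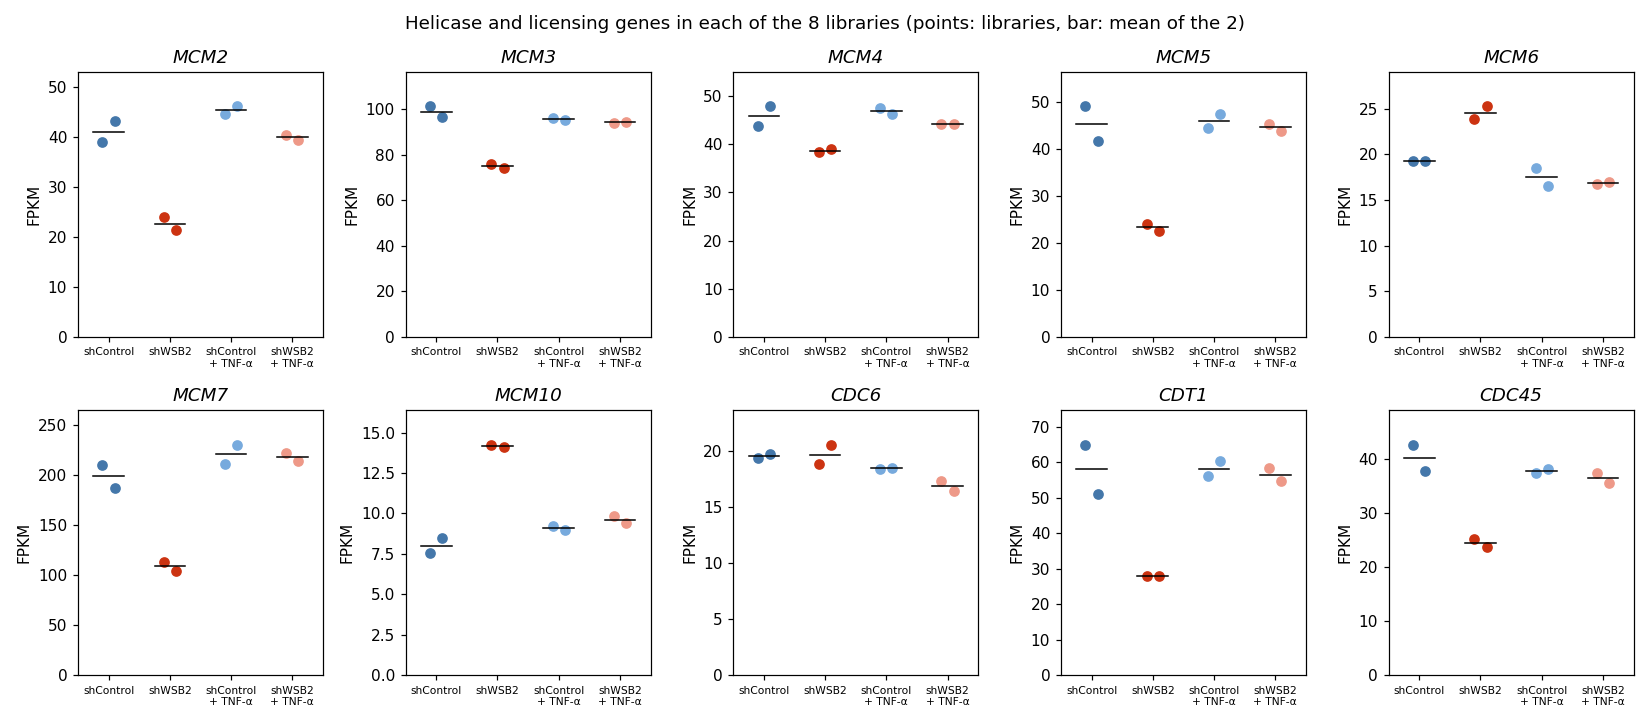
FPKM of each of the 10 genes (vertical axis, from 0) in the 8 libraries, by group; points are libraries and the bar is the mean of the 2. The unstimulated KD libraries lie below the other 6 for MCM2, MCM3, MCM4, MCM5, MCM7, CDT1 and CDC45 and above them for MCM6 and MCM10, in the deposited scaling (the MCM4 difference from unstimulated control cells turns with total reads).

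CDT1, which loads the helicase, measured 64.9 and 51.1 FPKM in the control libraries, but only 28.0 and 27.9 FPKM in the KD libraries. It lies on chromosome 16 from 88803213 to 88809258 on the plus strand, and its transcript has the highest GC content of the 10, 64.9%. On the log2(FPKM + 1) scale that is used throughout, the fold change was -1.02 (standard error, SE, 0.115; adjusted p = 3.02e-04 by limma). CDC6, which acts in the same loading step, measured 19.4 and 19.8 FPKM in control libraries against 18.8 and 20.6 FPKM in KD libraries. Its libraries overlapped, and its log2 fold change was 0.01, with a 95% interval from -0.17 to 0.19. With upper-quartile factors CDC6 was -0.23 (adjusted p = 0.0483) and with total reads 0.28 (adjusted p = 0.0190), so that its call and direction rest on the scaling.

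Among the subunits of the ring, MCM5 fell most, as deposited and after the correction. It measured 49.0 and 41.6 FPKM in control libraries against 24.0 and 22.5 FPKM in KD libraries, a log2 fold change of -0.93 (SE 0.0946, adjusted p = 2.25e-04). MCM7 was at 210 and 188 FPKM against 114 and 104 FPKM, a log2 fold change of -0.86 (SE 0.101, adjusted p = 3.44e-04). MCM2 was at 38.9 and 43.1 FPKM against 23.9 and 21.3 FPKM, a log2 fold change of -0.83 (SE 0.0870, adjusted p = 2.40e-04). In these 3 genes the KD libraries lay far below both control libraries.

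MCM3 and MCM4 fell less. MCM3 measured 101 and 96.7 FPKM in control libraries against 76.1 and 74.4 FPKM in KD libraries, a log2 fold change of -0.39 (SE 0.0728, adjusted p = 0.00241). MCM4 was at 43.8 and 47.9 FPKM against 38.3 and 39.0 FPKM, a log2 fold change of -0.24 (SE 0.0735, adjusted p = 0.0231). The groups did not overlap in either gene. The MCM4 call was lost without either unstimulated KD library (adjusted p = 0.0965 and 0.0799) or either TNF-α-stimulated KD library (both 0.0573), and when only the 4 libraries compared were fitted (0.130), and the MCM3 call was lost with libraries scaled to total reads (-0.11, adjusted p = 0.181).

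MCM6 moved against the other 5 subunits. It measured 19.3 FPKM in both control libraries and rose to 23.9 and 25.3 FPKM in the KD libraries, a log2 fold change of 0.33 (SE 0.0792, adjusted p = 0.00760). Without the second unstimulated KD library the difference was 0.29 and no longer called (adjusted p = 0.0567), and with upper-quartile factors it was 0.10 (adjusted p = 0.345). MCM10, which takes part in switching the helicase on, was at 7.57 and 8.45 FPKM in control libraries against 14.3 and 14.1 FPKM in KD libraries, a log2 fold change of 0.75 (SE 0.0827, adjusted p = 2.77e-04). CDC45, the partner of the ring in the active helicase, was at 42.7 and 37.9 FPKM against 25.3 and 23.8 FPKM, a log2 fold change of -0.69 (SE 0.0834, adjusted p = 3.71e-04). MCM10 and CDC45, which act at the same step of activation, thus moved in opposite directions with no overlap between groups.

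The median log2 fold change without TNF-α was -0.54 over the members and -0.0010 over all genes, where the scaling to total reads moved the median of all genes by 0.13 and upper-quartile factors by -0.11. With total reads MCM4 was 0.04 and the other 6 lower members stayed below 0.

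Without TNF-α the members' differences followed GC content. MCM6, MCM10 and CDC6, at 43.1%, 43.3% and 45.5% GC in their longest transcript, are the 3 members that were not lower. MCM2, MCM5, MCM7 and CDT1, at 57.0% to 64.9%, fell most. Across the 10 members the Spearman correlation between GC content and the log2 fold change was -0.93, and across 16520 genes it was -0.68, as a description over genes that share the same libraries. With TNF-α the same values were 0.07 and 0.03.

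After a correction of each library with splines on GC content and length, 6 members were called lower and 1 higher without TNF-α, with 24.5% of all genes higher and 27.6% lower. MCM5 was then at -0.64 (adjusted p = 0.00106), CDC45 at -0.41 (adjusted p = 0.00178), MCM7 at -0.40 (adjusted p = 0.00221) and MCM2 at -0.38 (adjusted p = 0.00583). CDT1 went from -1.02 to -0.37 (adjusted p = 0.00565), while MCM4 was at -0.27 (adjusted p = 0.00452). MCM10 stayed higher at 0.45 (adjusted p = 0.00155). MCM3 at -0.12, MCM6 at 0.09 and CDC6 at -0.13 were not called. The correction shrank the differences of MCM2, MCM3, MCM6, MCM7, MCM10, CDT1 and CDC45 by over 1.5 times. The part of RNA quality or library composition in these differences was not tested otherwise.

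**Figure D2:**
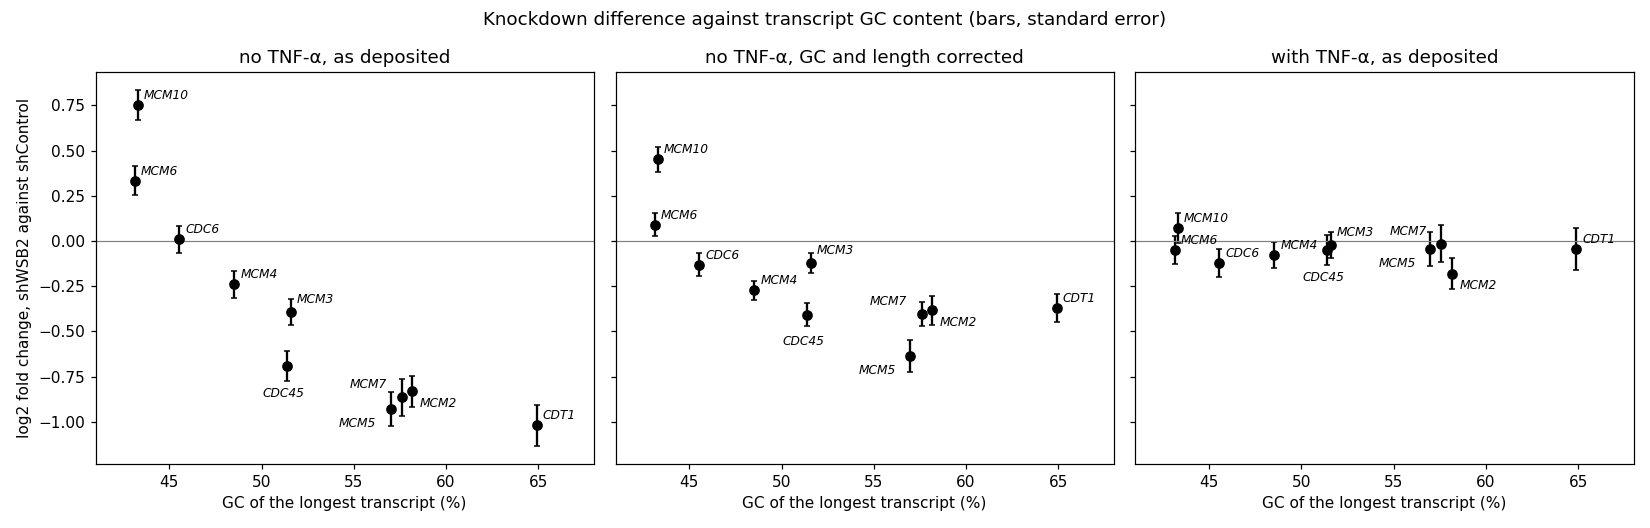
Log2 fold change of KD against control cells (vertical axis, log2 units) against the GC content of the longest transcript (horizontal axis, %), one point per gene with its standard error, without TNF-α as deposited, without TNF-α after the GC and length correction, and with TNF-α. The slope from MCM10 (0.75) to CDT1 (-1.02) flattens after the correction (0.45 and -0.37) and is absent with TNF-α.

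The ring has one of each subunit, and the balance of its transcripts shifted in the unstimulated KD libraries. Summed over MCM2 to MCM7 there were 463 and 436 FPKM in unstimulated control libraries, 300 and 287 FPKM in unstimulated KD libraries, and 454 to 482 FPKM in the 4 libraries with TNF-α. MCM7 made up 45.5% and 43.0% of the sum in the former and 37.9% and 36.4% in the latter. MCM6 made up 4.17% and 4.42% and then 7.96% and 8.82%. The ratio of MCM7 to MCM6, on which a scaling of whole libraries has no effect but GC content can act, was 10.9 and 9.74 in control libraries, but 4.76 and 4.12 in KD libraries. With TNF-α it was 11.4 and 13.9 in control libraries against 13.3 and 12.7 in KD libraries. The ratio of MCM2 to MCM6 was 1.00 and 0.842 in unstimulated KD cells and 2.01 to 2.78 in the other 6 libraries. With 2 libraries against 2 an exact permutation test cannot reach 0.05, and no test was made of these ratios. MCM7 has 57.6% GC and MCM6 43.1%, and the log2 fold change of MCM7 minus that of MCM6 without TNF-α went from -1.20 as deposited to -0.49 with the GC and length correction.

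**Figure D3:**
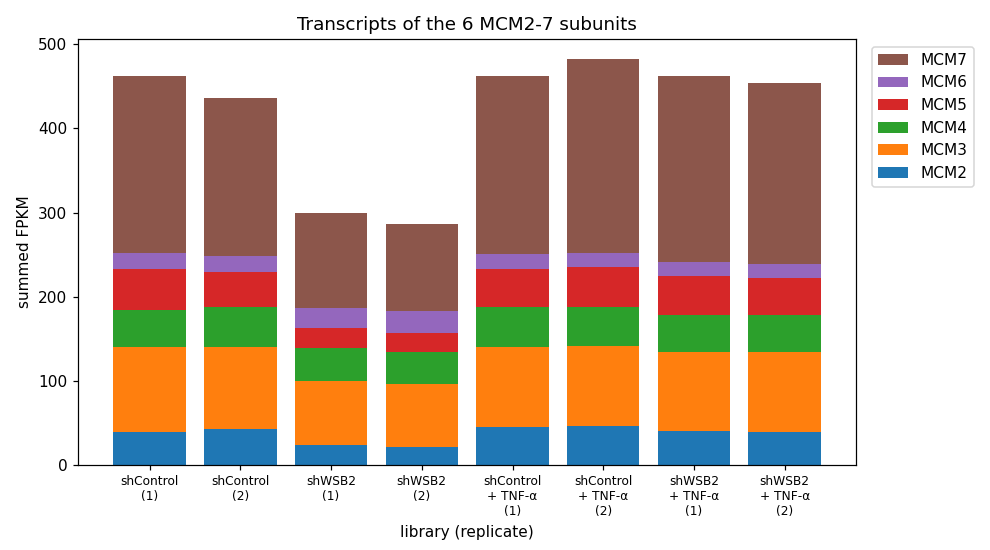
Stacked FPKM of the 6 subunit genes (vertical axis, summed FPKM from 0) in each library, in the order of the groups. The unstimulated KD libraries reach 300 and 287, and the other 6 reach 436 to 482, with the MCM6 share wider in the former.

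The ratio of CDT1 to its inhibitor geminin was lower in the same libraries. It was 3.94 and 4.08 in unstimulated control cells and 1.57 and 1.58 in unstimulated KD cells, against 4.55 to 5.27 with TNF-α. GMNN measured 16.5 and 12.5 FPKM in control libraries against 17.8 and 17.7 FPKM in KD libraries, a log2 fold change of 0.29 that was not called (adjusted p = 0.0744). CDT1 and GMNN have 64.9% and 43.6% GC. The log2 fold change of CDT1 minus that of GMNN went from -1.30 to -0.50 with the GC and length correction, with CDT1 at -0.37 and GMNN at 0.13.

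With TNF-α, none of the 10 members was called between KD and control cells by limma or by the voom fit of the recovered reads. With all 8 libraries fitted, none had an unadjusted P-value under 0.05 in either. Of all genes 0.0605% were called higher and 0.0545% lower. CDT1 measured 56.0 and 60.5 FPKM in control libraries against 58.3 and 54.6 FPKM in KD libraries, with overlapping libraries. MCM7 was at 211 and 231 FPKM against 222 and 215 FPKM, also with overlap. MCM10 was at 9.24 and 8.98 FPKM against 9.83 and 9.41 FPKM. The fit pools the spread of all 4 groups, although replicates scattered unequally. Relative to what counting of reads alone would give, replicate variance was 30.1 in control and 7.23 in KD cells without TNF-α. With TNF-α it was 4.31 and 2.45, in the same order. When only the 4 libraries compared were fitted, 1 member had an unadjusted P-value under 0.05 with TNF-α and 0 were called. Such a fit without TNF-α called 2 members higher and 6 lower. The pooling was not tested otherwise.

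The log2 fold changes with TNF-α ran from -0.18 (MCM2) to 0.07 (MCM10). The 95% interval of MCM2, which measured 44.5 and 46.0 FPKM in control against 40.3 and 39.4 FPKM in KD libraries, went from -0.38 to 0.02. Its libraries did not overlap. The interval of MCM5 went from -0.26 to 0.18 and that of MCM7 from -0.25 to 0.22. For CDT1 it went from -0.31 to 0.22, which leaves out the difference of -1.02 seen without TNF-α.

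In control cells TNF-α left none of the 10 members called by limma or voom, or with an unadjusted P-value under 0.05 in either, where 3.10% of all genes were called higher and 1.14% lower. The log2 fold changes ran from -0.13 for MCM6, at 18.5 and 16.5 FPKM with TNF-α, to 0.17 for MCM10. The 95% interval of CDT1 went from -0.25 to 0.28 and that of CDC6, at 18.4 and 18.5 FPKM with TNF-α, from -0.26 to 0.10. The median over the members was 0.02.

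In KD cells the libraries with TNF-α differed from those without in 9 of the 10 members. MCM2, MCM3, MCM5, MCM7, CDT1 and CDC45 were higher with TNF-α, MCM6, MCM10 and CDC6 were lower, and of these MCM3 turns to -0.05 with libraries scaled to total reads and MCM3 and CDC6 are no longer called after the GC and length correction. Among all genes 31.1% were called higher and 31.4% lower. This comparison shares the unstimulated KD libraries with that of KD and control cells without TNF-α, so the 2 are not independent. The comparisons that leave those libraries out, KD against control with TNF-α and TNF-α in control cells, are the ones in which no member was called.

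MCM7 went from 114 and 104 FPKM to 222 and 215 FPKM, a log2 fold change of 1.00 (SE 0.101, adjusted p = 1.42e-04). CDT1 (0.99, adjusted p = 2.37e-04) and MCM5 (0.91, adjusted p = 1.54e-04) were close to it, and MCM2 followed at 0.79 (adjusted p = 1.91e-04). CDC45 rose by 0.56 (adjusted p = 7.46e-04) and MCM3 by 0.32 (adjusted p = 0.00572). After the GC and length correction MCM5 was at 0.54 (adjusted p = 0.00147), MCM7 at 0.52 (adjusted p = 6.25e-04), CDT1 at 0.32 (adjusted p = 0.00965), MCM2 at 0.31 (adjusted p = 0.0126) and CDC45 at 0.29 (adjusted p = 0.00629), all still called. MCM3 was at 0.05 and not called (adjusted p = 0.426).

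MCM6 went from 23.9 and 25.3 FPKM to 16.7 and 17.0 FPKM, a log2 fold change of -0.52 (SE 0.0792, adjusted p = 8.25e-04), and MCM10 also fell by 0.52 (adjusted p = 0.00105). Corrected for GC content and length, these were -0.23 (adjusted p = 0.0161) and -0.19 (adjusted p = 0.0405), and with the replicate block added the MCM10 call was lost (adjusted p = 0.0584). CDC6 went from 18.8 and 20.6 FPKM to 17.4 and 16.4 FPKM, a log2 fold change of -0.21 (adjusted p = 0.0424). Its call was lost without the second unstimulated KD library (adjusted p = 0.232), either TNF-α-stimulated KD library (0.0979 and 0.226) or either TNF-α-stimulated control library (0.0749 and 0.0748). It was also lost with voom (adjusted p = 0.0600), the replicate block (0.0633), the GC and length correction (-0.06, adjusted p = 0.449) and upper-quartile factors (-0.01, adjusted p = 0.922). MCM4, from 38.3 and 39.0 FPKM to 44.3 FPKM in both libraries, was at 0.19 and not called (adjusted p = 0.0510). It was called without either unstimulated control library (adjusted p = 0.00975 and 0.00991), with the GC and length correction (0.19, adjusted p = 0.0185), with upper-quartile factors (0.40, adjusted p = 0.00224) and when only the 4 libraries compared were fitted (adjusted p = 0.0185), and it was -0.18 with total reads (adjusted p = 0.102). The MCM3 call was lost without the second TNF-α-stimulated KD library (adjusted p = 0.0528).

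**Figure D4:**
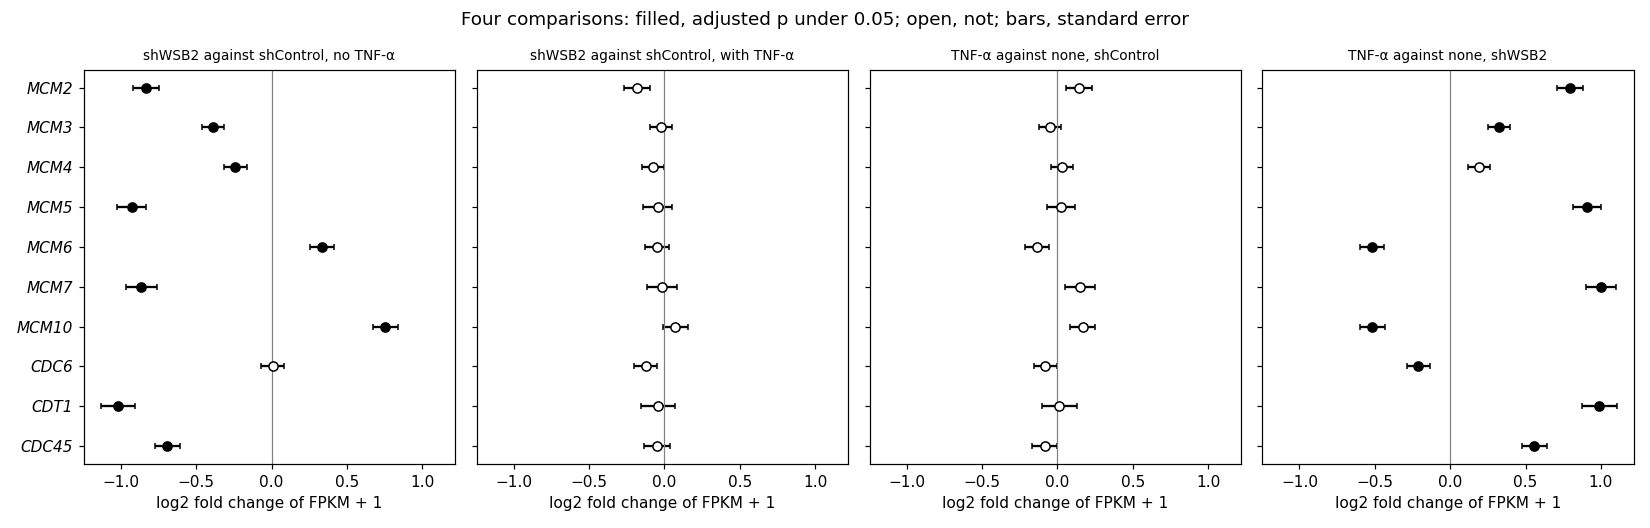
Log2 fold changes of FPKM + 1 (horizontal axis) of the 10 genes in 4 comparisons, with standard errors; filled points have an adjusted p under 0.05 from limma. The members spread from -1.02 to 0.75 without TNF-α and from -0.18 to 0.07 with it.

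The interaction of KD and TNF-α, which is the KD effect with the cytokine minus that without, was called in 8 members. It was above 0 in MCM2 (0.65), MCM3 (0.37), MCM5 (0.88), MCM7 (0.85), CDT1 (0.98) and CDC45 (0.64) and below 0 in MCM6 (-0.38) and MCM10 (-0.68), with adjusted p from limma between 0.00249 and 0.0253. Of all genes, 23.8% were called above and 22.3% below 0. MCM4 at 0.16 (95% interval -0.08 to 0.40) and CDC6 at -0.13 (-0.38 to 0.12) were not called. With the GC and length correction 4 members were called, MCM5 (0.59), CDC45 (0.35), MCM7 (0.39) and MCM10 (-0.38). Of all genes, 19.5% were then called above and 15.8% below 0. CDT1 (0.32, adjusted p = 0.0552), MCM2 (0.20, adjusted p = 0.197), MCM3 (0.09, adjusted p = 0.414) and MCM6 (-0.14, adjusted p = 0.250) were then not called. With total reads MCM2 (0.36, adjusted p = 0.0638) and MCM3 (0.07, adjusted p = 0.582) were lost and CDC6 became called (-0.42, adjusted p = 0.0206). With upper-quartile factors MCM6 was lost (-0.15, adjusted p = 0.347) and MCM4 became called (0.40, adjusted p = 0.0155). The MCM3 call was lost without either unstimulated KD library or any of the 4 libraries with TNF-α, with adjusted p up to 0.0950. The MCM6 call was lost without the second unstimulated KD library, the first TNF-α-stimulated control library or either TNF-α-stimulated KD library, with adjusted p up to 0.104. MCM4 became called without the first unstimulated control library (0.22, adjusted p = 0.0483).

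Over the 8 libraries the members fell into 2 patterns, in both of which the unstimulated KD libraries were the extreme values. MCM2, MCM3, MCM4, MCM5, MCM7, CDT1 and CDC45 correlated with each other at Pearson r from 0.85 to 1.00 on the log2 scale, as a description over 8 libraries. MCM6 and MCM10 correlated with each other at 0.77 and with those 7 genes at -0.80 to -0.98. CDC6 had weaker correlations, at 0.70 with MCM6, 0.25 with MCM10 and -0.27 (MCM4) to -0.58 (MCM7) with those 7 genes. The genes outside the lists most like the mean of the members' scaled values, among 6515 with a mean of at least 5 FPKM, were ENO2 (r = 0.997), HECTD3 (0.996), BLMH (0.993), EXOC3 (0.990) and LAMC3 (0.989). All 5 had their lowest mean in the unstimulated KD libraries, such as HECTD3 at 8.22 FPKM there and 14.4 to 19.3 FPKM in the other groups. This follows from their choice by correlation over the same libraries and is no separate result. MCM6 and MCM10, which moved the other way, are part of the mean used.

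Other genes of replication were read against the same shares of all genes without TNF-α, 29.8% higher and 30.2% lower as deposited and 24.5% and 27.6% with the GC and length correction, and no list was tested against the members. Of 12 genes for origin recognition and licensing control, 6 were called higher and 1 lower in KD cells without TNF-α, with a median of 0.42. ORC3, a subunit of the origin recognition complex, rose by 1.13 (adjusted p = 4.25e-04) and DBF4, the activator of the kinase CDC7, by 1.08 (adjusted p = 1.55e-04). The 1 lower gene was CDCA5, at -0.60 (adjusted p = 5.35e-04). It encodes the cohesin protector sororin and is not a gene of origin recognition or licensing, although the list holds it. With the GC and length correction 4 were higher and 2 lower, with a median of 0.11 and values from -0.27 to 0.67.

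Among 13 partners of the helicase and of origin firing, 7 were higher and 4 lower without TNF-α. TOPBP1 (1.83, adjusted p = 1.32e-04), a scaffold for CDC45 loading, and WDHD1 (1.73, adjusted p = 1.19e-04), which ties the helicase to the polymerase, rose most. RECQL4 (-0.78, adjusted p = 0.00164) and the GINS subunit GINS2 (-0.73, adjusted p = 0.00114) fell most, and RECQL4 was not called after the correction (-0.17, adjusted p = 0.134). Of 23 polymerase, clamp and loader genes 7 were higher and 9 lower, from POLD2 at -1.21 to RFC1 at 1.51. Of the helicase relatives, MCM8 rose by 1.66 (adjusted p = 1.19e-04) and stayed called higher after the correction (adjusted p = 3.21e-04), while MCM9, at 0.29 as deposited (adjusted p = 0.0220), turned to a called fall of -0.54 after it (adjusted p = 0.00300). With the GC and length correction the 13 partners were 5 higher and 2 lower, with values from -0.67 to 1.40. The 23 genes were then 4 higher and 11 lower, with values from -0.86 to 1.03.

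Of 6 genes of deoxynucleotide synthesis, 4 were lower and 1 higher without TNF-α, with TK1, thymidine kinase, at -1.22 (adjusted p = 3.10e-04). The counts were the same after the correction, but the values were smaller, with the lowest of the list at -0.61 and the highest at 0.23. Of 18 G1/S regulators, 7 were higher and 6 lower. RB1, the retinoblastoma protein that restrains E2F1, at 1.49 (adjusted p = 1.97e-04) and RBL1 at 1.39 (adjusted p = 2.87e-04) rose most. E2F1 at -0.96 (adjusted p = 3.24e-04) and CDKN1A at -0.75 (adjusted p = 3.06e-04) fell most. After the correction 6 were higher and 2 lower, and the values of the list ran only from -0.32 to 0.84. Of 12 genes of mitosis, 6 were higher and 5 lower, from PLK1 at -1.05 to CENPF at 2.63. The counts again did not change with the correction, while the range narrowed to -0.67 to 1.96. With TNF-α no gene of any of these 7 lists was called between KD and control cells.

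In TNF-α-stimulated KD cells against unstimulated ones, 31.1% of all genes were higher and 31.4% lower. Origin recognition and licensing control had 1 higher (CDCA5, at 0.77) and 8 lower, helicase partners 3 and 7, and polymerases, clamp and loaders 11 and 7. G1/S regulators had 6 and 8, deoxynucleotide synthesis 2 and 2, helicase relatives 0 and 2, and mitosis 4 and 6. With the GC and length correction, where 30.5% of all genes were higher and 26.0% lower, these were 2 and 4, 4 and 6, 10 and 6, 4 and 8, 2 and 1, 1 and 1, and 4 and 6, in the same order. In control cells TNF-α lowered PRIM1 (-0.50, adjusted p = 0.0241), a primase subunit, E2F2 (-0.48, adjusted p = 0.0323) and CDKN1B (-0.44, adjusted p = 0.0447), and no other gene of the 7 lists was called.

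Neighbouring genes could share reads with members in 2 places, since the strand of counting is not given in the sources used here. MCM7 (chromosome 7, 100092728 to 100101940, minus strand) shares 392 of its 4386 exon bases with AP4M1 on the opposite strand, which had 3704 reads in the 8 libraries against 108821 for MCM7. MCM2 (chromosome 3, 127598223 to 127622436, plus strand) shares 1113 of its 4902 exon bases with an antisense gene that had 14 reads in all, and 45 with TPRA1. The miRNA genes MIR25, MIR93 and MIR106B lie within MCM7 and share no exon base with it. The other 8 members overlap no annotated gene.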

How the data were processed

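The authors deposited FPKM values of each gene, with 2 libraries per table, and the submitters' processing notes name CASAVA 1.8, fastp, HISAT2 2.0.5, featureCounts 1.5.0-p3, DESeq2 1.20.0 and GRCh38. Whole reads were recovered for 100% of the values (tolerance 0.01 reads), with a library size that was scaled and not the total. Identifiers and positions matched GENCODE release 29 for all 58735 genes, and symbols were taken from it. Log2(FPKM + 1) was tested with limma 3.58.1 in R 4.3.3, with 4 group means over 8 libraries (4 residual degrees of freedom, variance trend) and Benjamini-Hochberg adjustment over 16528 genes kept for 10 or more reads, scaled to the median depth, in 2 or more libraries and 15 or more in total. Adjusted p values in the report come from this fit unless voom, another scaling, a correction or a left-out library is named. The script was tested on simulated data. The deposited unit is FPKM, and the recovered reads were fitted with voom and with no other count model. GC content is that of the longest GENCODE transcript, and the correction used splines with 5 degrees of freedom for GC content and for length. Python 3.11.15, pandas 2.3.3 and matplotlib 3.10.9 were used. Named genes are the 10 members, WSB2, the up to 2 largest called rises and falls of each list, GMNN as the inhibitor of CDT1, the marker genes and the 5 genes most like the members, of which a selection is given. The members and lists were chosen with earlier results of these data known.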

Additional observations from a re-analysis of the deposited data

Results flagged for a closer look

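The effect of the WSB2 shRNA differed between cells with and without TNF-α in 8 of the 10 members, by limma's test of the interaction. Such differences were common in the series, with 23.8% of all genes called above and 22.3% below 0. On the log2 scale the KD effect with TNF-α minus the KD effect without it was 0.65 for MCM2, 0.37 for MCM3, 0.88 for MCM5, 0.85 for MCM7, 0.98 for CDT1 and 0.64 for CDC45. It was -0.38 for MCM6 and -0.68 for MCM10. With the GC and length correction 4 of the 8 were called, MCM5, MCM7, MCM10 and CDC45, where 19.5% of all genes were above and 15.8% below 0. All of these member differences rest on the unstimulated KD libraries, whose mitochondrial share and GC content differed from the other 6. The part of mitochondrial share and GC content in the differences was not tested beyond the GC and length correction. Groups of 2 libraries were not examined for outlying samples.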

How the results depend on the processing

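Over 890 recomputed member values, 802 kept their direction and call, 47 lost the call, 10 gained it and 31 changed sign. Of the 802, 174 were for KD against control with TNF-α and 165 for TNF-α in control cells, where there was no call to lose. Leaving out a library of a group not compared cannot move the fold change. The 802 therefore overstate the stability. For KD against control without TNF-α, MCM4 and CDC6 each kept direction and call in 12 of 18 settings. With the GC and length correction 4 members were called for the difference of the KD effects, with and without the replicate block, in place of 8. Without the block, that correction left 19.5% of all genes called above and 15.8% below 0. Leaving out 1 library gave 7 to 9 members called for KD against control without TNF-α, 7 to 10 for TNF-α in KD cells, 6 to 9 for the difference and 0 for the other comparisons. The replicate numbers are not tied to a shared culture or day by the labels, and the correlations of replicate differences ran from -0.19 to 0.35. With the replicate block, which treats them as pairs, 9, 0, 0, 8 and 8 members were called, in the order without TNF-α, with TNF-α, TNF-α in control cells, TNF-α in KD cells and difference. In the main fit 29.8% of all genes were called higher and 30.2% lower without TNF-α, and 31.1% and 31.4% for TNF-α in KD cells. For the difference these shares were 23.8% and 22.3%. Shares of all genes under the block or with a library left out are not given here. Signs changed as follows. For KD against control without TNF-α, MCM4 was 0.036 with total reads, and CDC6 was -0.23 with upper-quartile factors, -0.13 with the GC and length correction, with or without the block, and -0.053 to 0.070 over left-out libraries. With TNF-α, leaving out 1 library gave -0.090 to 0.0011 for MCM5, -0.13 to 0.024 for MCM6, -0.079 to 0.048 for MCM7 and -0.098 to 0.012 for CDT1. For TNF-α in control cells, MCM4 was -0.045 with total reads, -0.0054 with upper-quartile factors and -0.031 to 0.093 over left-out libraries. Under the same settings MCM5 was -0.051, -0.012 and -0.091 to 0.14, and -0.050 with the GC and length correction, with or without the block. CDT1 was -0.062, -0.023 and -0.16 to 0.18, and -0.0027 with that correction, with or without the block. For TNF-α in KD cells, total reads gave -0.054 for MCM3 and -0.18 for MCM4. For the difference, total reads gave -0.13 for MCM4 and upper-quartile factors 0.10 for CDC6. The causes were not tested. The number of libraries, 2 per group, limits the precision, and the part of depth was not tested.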
